A study of Homo sapiens with 24 samples.

Results

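The thioredoxin and peroxiredoxin system was followed in the human lymphoma line HBL-1, derived from diffuse large B-cell lymphoma of the activated B-cell type, through 10 genes chosen by symbol from the 21831 genes of each deposited table. All 10 were found in every table, and all 10 passed the filter on low counts. They were TXN, TXNRD1, SRXN1, PRDX1, PRDX2 and PRDX6, whose proteins work mainly in the cytosol, and TXN2, TXNRD2, PRDX3 and PRDX5, whose proteins work in mitochondria (PRDX5 also in peroxisomes and the cytosol). The DMF groups were HBL-1 cells kept for 6, 12, 24 or 48 h in dimethyl fumarate (DMF) at 20 µM, given in DMSO, and the control groups were HBL-1 cells kept for the same times with DMSO. Total RNA of 3 replicates per treatment and time was sequenced, which gave 24 libraries in 8 groups. All groups were 1 line in culture, and nothing in the labels says that replicates came from separate cultures, so p-values measure the spread between these libraries, which may be technical.

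Peroxiredoxins reduce hydrogen peroxide and other peroxides with a reactive cysteine, which becomes oxidised in the reaction. Thioredoxin reduces that cysteine again and is itself reduced by thioredoxin reductase, a selenoprotein that takes its electrons from NADPH. When peroxide is plentiful the cysteine can be oxidised further, and sulfiredoxin, encoded by SRXN1, repairs it at the cost of ATP. Cytosol and mitochondria hold separate thioredoxins and reductases. DMF is an electrophile that reacts with cysteines and activates NRF2, a transcription factor whose textbook targets include TXN, TXNRD1, SRXN1 and PRDX1.

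The libraries held 2870751 to 40906596 expected counts (estimated reads per gene). The lowest was replicate 1 of DMF at 48 h and the next lowest held 23097873. In TPM, which the text below uses for levels, B-cell genes were present in all 24 libraries (MS4A1 at 80.8 to 511 TPM and CD79A at 1353 to 3308 TPM), and the T-cell gene CD3E stayed at 0.07 TPM or less. Both replicate 3 libraries of 12 h stood apart from the other 22. Their counts lay on shorter transcripts (mean effective length 1902 to 2121 bases, against 2850 to 3157) and more of their counts were ribosomal protein genes (20.8% to 26.4%, against 8.75% to 13.9%). A fit with both libraries had a common dispersion of 0.0521, against 0.00212 without them, and results are given in all 24 libraries with those of the 22 beside them. At 6, 24 and 48 h ribosomal RNA genes took more of the counts in DMF than in control, with 1.72% to 1.89% against 1.004% to 1.09% at 6 h, 0.915% to 0.919% against 0.645% to 0.682% at 24 h and 1.29% to 1.45% against 0.728% to 0.793% at 48 h. At 12 h the groups overlapped, with 1.15% to 2.16% in DMF and 0.72% to 2.46% in control. The summed TPM of the myeloid genes CD14, CD68 and LYZ was 7.30 to 8.60 in DMF and 2.81 to 3.40 in control at 24 h, and 9.73 to 11.1 in DMF and 2.33 to 4.07 in control at 48 h. CD68, which other cell types also express, carried these sums (6.63 to 7.67 TPM in DMF against 2.59 to 2.79 TPM in control at 24 h), while CD14 at 0.37 TPM or less and LYZ at 0.73 TPM or less had overlapping groups at 24 and 48 h. B-cell genes moved with DMF in both directions: CD79A had 3144 to 3308 TPM in DMF and 1353 to 1522 TPM in control at 48 h, and CD22 had 41.0 to 43.8 TPM in DMF and 101 to 110.3 TPM in control. IRF4, a gene of the activated B-cell type, had 104 to 118 TPM in DMF and 207 to 209.9 TPM in control at 24 h. The part of these measures in the results was not tested.

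Cytosolic genes of thioredoxin recycling and peroxiredoxin repair were higher in DMF than in control. No mitochondrial gene passed the main edgeR test in the 24 libraries, though some passed in the alternatives given below. TXNRD1 and SRXN1 rose at all 4 times, PRDX1 rose at 12, 24 and 48 h, and PRDX2, a gene with few reads here, fell at 48 h. Of the 6 cytosolic genes, 2 rose at 6 h, 3 at 12 h, 3 at 24 h and 3 at 48 h, beside 1 that fell at 48 h (edgeR quasi-likelihood test, Benjamini-Hochberg adjusted p under 0.05). Of all 13419 genes tested, 5.03% were called higher at 6 h, 7.37% at 12 h, 7.81% at 24 h and 13.3% at 48 h, and 12.5% were called lower at 48 h. Of the 4 mitochondrial genes, edgeR called 0 at each time, where 10.6%, 17.3%, 14.4% and 25.8% of all genes were called in either direction. With only 4 genes, a count of 0 does not set them apart from all genes. At an unadjusted p under 0.05 it marked 1 of them, PRDX3 at 12 h, where 28.2% of all genes were marked, and DESeq2 called that gene at that time and no other mitochondrial gene. PRDX3 at 12 h was also called by edgeR with DESeq2's size factors (0.22, adjusted p = 0.05 after rounding). Limma on log2(TPM + 1) called TXNRD2, lower at 12 h (-0.37, adjusted p = 0.039) and higher at 48 h (0.31, adjusted p = 0.042). On that scale the median over all genes was 0.01 at 12 h and 0.17 at 48 h. With only the groups of a time fitted, edgeR called 2 mitochondrial genes higher and 1 lower at 6 h, 0 at 12 h, 3 higher at 24 h and 1 lower at 48 h. The share of all genes called by DESeq2, by limma or in the fits of single times was not counted. These calls therefore have no background to be set against. In bulk RNA, fewer cells with a transcript and less of it per cell cannot be told apart.

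The median log2 fold change of the 6 cytosolic genes was 0.63 at 6 h, 0.67 at 12 h, 0.80 at 24 h and 0.95 at 48 h. The median of the 4 mitochondrial genes was 0.09 at 6 h, -0.36 at 12 h, 0.20 at 24 h and -0.01 at 48 h. Over all genes tested the medians were -0.00, -0.05, 0.01 and 0.02 at these times. The medians at 12 h depended on replicate 3. In the 22 libraries they were 0.84 for the cytosolic and -0.01 for the mitochondrial genes. Without replicate 3 of 12 h the counts were larger, as for all genes: 47.2%, 47.9%, 57.4% and 64.5% of 13606 genes were called at 6, 12, 24 and 48 h. There, 5 cytosolic genes were higher at every time, beside 23.8%, 24.1%, 29.5% and 33.6% of all genes, and 1 was lower at 48 h, beside 30.9% of all genes. Among the mitochondrial genes 2 were higher at 6 h, 2 were higher and 1 lower at 12 h (23.8% of all genes were lower then), 3 were higher at 24 h, and 1 was higher and 1 lower at 48 h. The mitochondrial changes in the 22 libraries were at most 0.42 in size on the log2 scale.

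**Figure D1:**
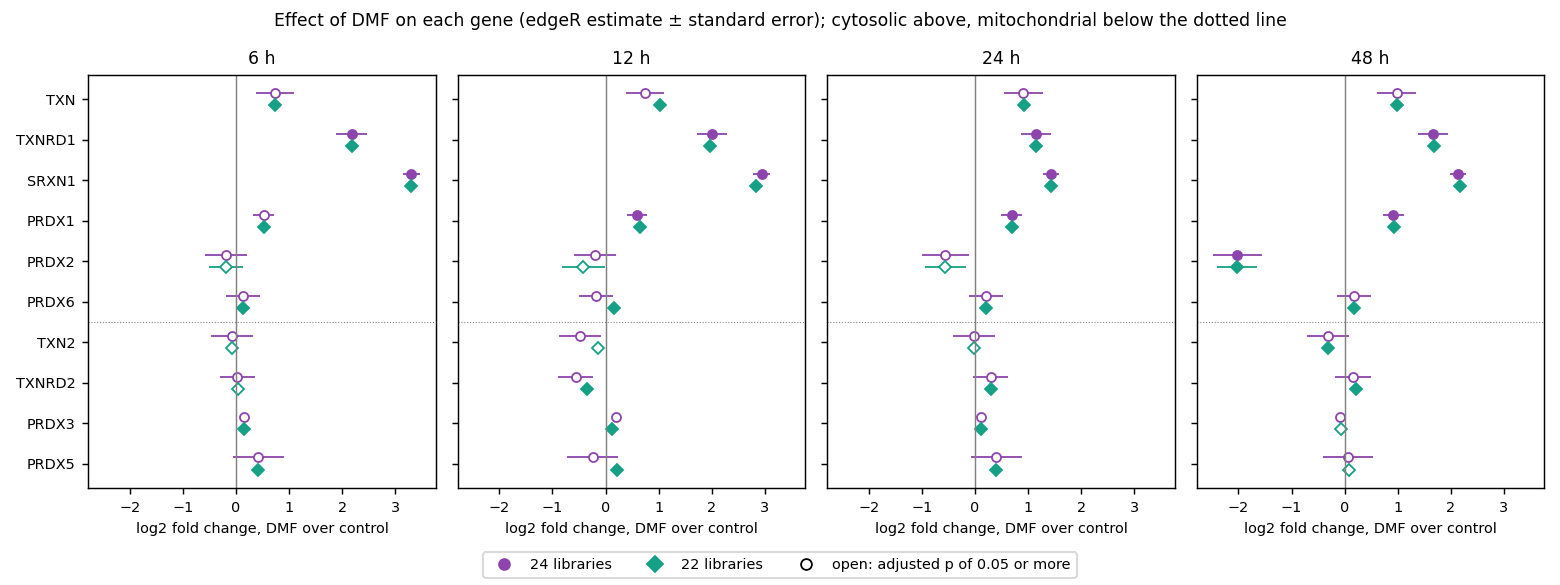
Log2 fold change of each gene, DMF over control, at 6, 12, 24 and 48 h, as edgeR estimates with bars of 1 standard error; circles are fits of 24 libraries, diamonds fits of 22, and open symbols have an adjusted p of 0.05 or more. SRXN1 and TXNRD1 lie furthest to the right in every panel, and no mitochondrial gene lies beyond -0.57 or 0.42 in the 24-library fits.

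By level, in TPM (transcripts per length, scaled to a fixed sum in each library), PRDX1 was the most abundant of the 10 genes in every library, from 774 to 2131 TPM, and PRDX2 the least, from 0.30 to 2.32 TPM. TXN had 277 to 821 TPM and came second, except that TXNRD1 lay above it in all 3 DMF libraries of 6 h, and PRDX5 in all 3 control libraries of 48 h and in replicate 3 of control at 12 h. TXNRD2 was low throughout, from 4.34 to 10.3 TPM.

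**Figure D2:**
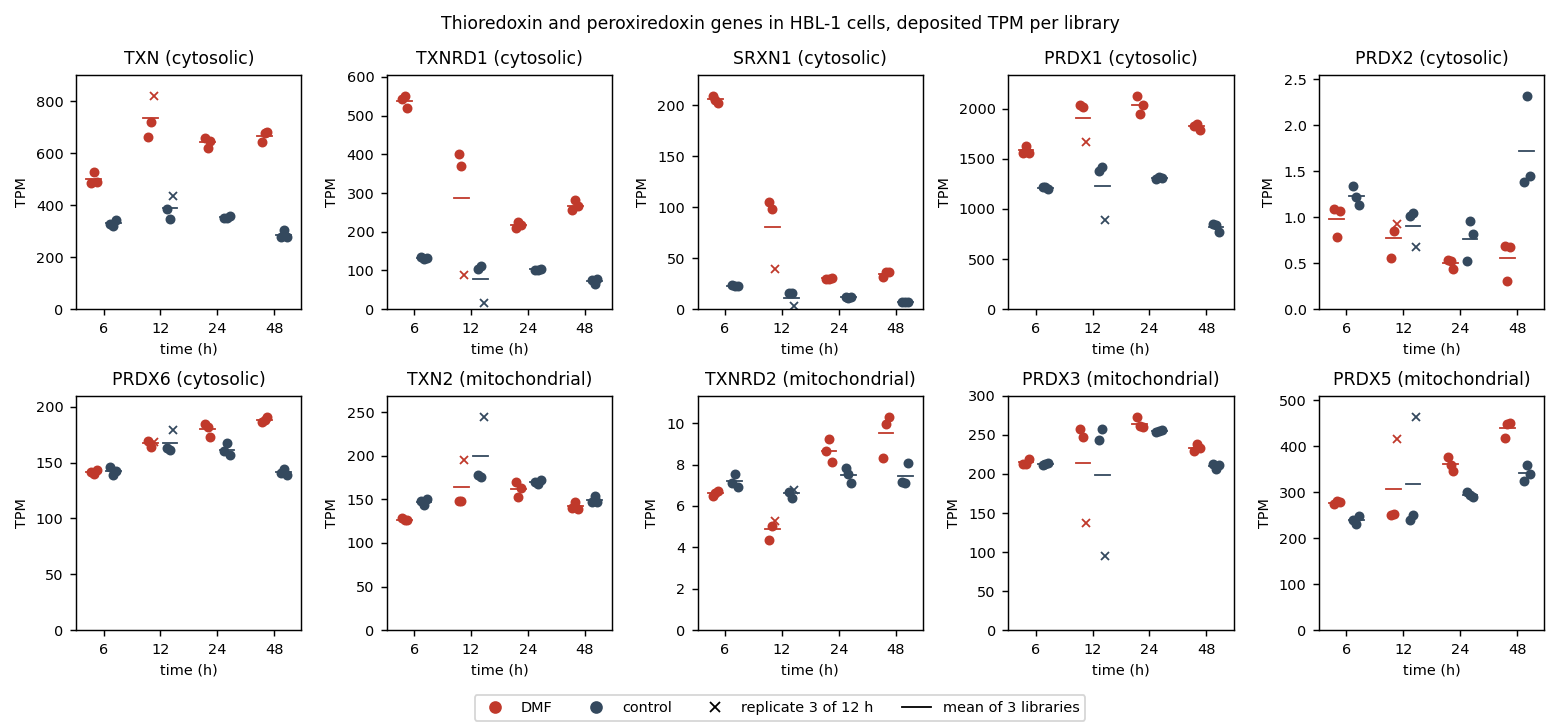
Deposited TPM of the 10 genes in each of the 24 libraries at 6, 12, 24 and 48 h, with DMF left of control at each time; bars are means of 3 libraries and crosses are replicate 3 of 12 h. DMF and control separate at every time for SRXN1, and for TXNRD1 at all but 12 h, where replicate 3 of DMF (89.2 TPM) lies below the other controls, while the DMF means of TXN2 lie below the control means.

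TXN encodes thioredoxin, the small protein that hands electrons to the cytosolic peroxiredoxins, to ribonucleotide reductase and to other oxidised proteins. Its level at 6 h was 487, 529 and 488 TPM in DMF and 329, 320.2 and 342 TPM in control. At 12 h it was 663, 719.7 and 821 TPM in DMF and 387, 345 and 434 TPM in control. Every DMF library lay above every control library of its time. At 24 h TXN had 658, 621 and 646 TPM in DMF and 353, 350.5 and 357 TPM in control. At 48 h it had 644, 678 and 683 TPM in DMF and 277, 306 and 278 TPM in control. The groups were as clearly apart at these later times, with DMF above control in each.

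The fold differences of TXN in counts were 1.67, 1.67, 1.88 and 1.98 at 6, 12, 24 and 48 h. None passed in the 24 libraries, where the log2 fold changes were 0.74 ± 0.36, 0.74 ± 0.36, 0.91 ± 0.36 and 0.98 ± 0.36 (SE) and the edgeR adjusted p was 0.25, 0.19, 0.11 and 0.054. In the 22 libraries all 4 passed, with edgeR adjusted p of 4.9e-10, 4.2e-11, 5.6e-12 and 8.8e-13, and the fold at 12 h was 2.04. With limma on log2(TPM + 1) in the 24 libraries, TXN was also called at every time. DESeq2 (0.98, adjusted p = 0.046) and edgeR with a replicate block (0.97, adjusted p = 0.04) called TXN at 48 h in the 24 libraries. In a fit of the 6 libraries of 12 h with the replicate number as a block, added after seeing the data, TXN was called at 12 h (0.86, edgeR adjusted p = 0.008).

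TXNRD1 encodes the cytosolic thioredoxin reductase, a flavoenzyme whose active selenocysteine sits next to the end of the protein. It rose at all 4 times. At 6 h its level was 543, 551 and 519.8 TPM in DMF and 134, 129 and 131 TPM in control. At 12 h it was 400.0, 369.6 and 89.2 TPM in DMF and 103, 112 and 14.6 TPM in control. The lowest value in both groups at 12 h was that of replicate 3, and the DMF library of replicate 3 lay above its control counterpart but below replicates 1 and 2 of control. In counts scaled by TMM, all 3 DMF libraries of 12 h lay above all 3 controls. At 24 h TXNRD1 had 210.5, 226 and 217 TPM in DMF and 102, 101 and 104 TPM in control, and at 48 h it had 255, 281 and 266 TPM in DMF and 75.1, 65.0 and 76.9 TPM in control. No DMF library of 24 or 48 h fell into the control range.

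In counts, TXNRD1 was 4.53-fold higher in DMF at 6 h, 4.04-fold at 12 h, 2.22-fold at 24 h and 3.18-fold at 48 h. The log2 fold changes were 2.18 ± 0.29, 2.01 ± 0.28, 1.15 ± 0.28 and 1.67 ± 0.28 (SE), with edgeR adjusted p of 3.8e-05, 5.7e-05, 0.0078 and 0.00018. Among the 13419 genes ordered by log2 fold change, TXNRD1 stood at place 47, 65, 426 and 270 at these times. The 22 libraries gave log2 fold changes of 2.18, 1.97, 1.15 and 1.68, with edgeR adjusted p of at most 3.1e-18. In limma on log2(TPM + 1) the change at 24 h was not called (1.08, adjusted p = 0.3). Neither was the change at 12 h in a fit of the 6 libraries of 12 h alone (2.01, edgeR adjusted p = 0.31). With a replicate block in that fit, added after seeing the data, the change at 12 h was called (2.05, edgeR adjusted p = 0.00045).

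The selenocysteine codon is what sets the reductases apart from the other members, and both isoenzymes carry it in the same place. The lines below give the last 30 bases of the coding sequence of each reductase, stop codon included, in GENCODE v29 (GRCh38), 5′ to 3′, with the in-frame TGA that is read as selenocysteine in capitals. A single codon, of 3 bases, stands between it and the stop codon, and the windows agree at 18 of 30 bases. The codon of TXNRD1 lies at chr12:104348413-104348415 on the plus strand and that of TXNRD2 at chr22:19877111-19877113 on the minus strand.
TXNRD1: agcatcctccaggctggctgcTGAggttaa
TXNRD2: gaccccacggtgacaggctgcTGAgggtaa

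Promoter windows of 250 bases before to 50 after each start were available for 7 of the 10 genes, as 11 windows (RefSeq, GRCh38.p14). PRDX1, PRDX6 and TXN2 had no window and were not searched. The 11 windows were searched on both strands for TGACNNNGC, the core of the antioxidant response element to which NRF2 binds, and for TGANTCA, the AP-1 motif, which can overlap it. The core was found in 2 of the 11 windows, both of TXNRD1, against 13.35% of 35116 windows of all genes. TGANTCA was found in 0 of the 11, against 7.71% of all windows. The first TXNRD1 window (chr12:104215529-104215828, plus strand) has a match on its own strand that begins 99 bases before the start and one on the opposite strand that begins 8 bases before it. The second (chr12:104286782-104287081, plus strand) has one on the opposite strand that begins 102 bases before the start. Both are printed because TXNRD1 rose at every time, with matches in capitals. The SRXN1 window (chr20:653151-653450, minus strand) is printed beside them because SRXN1 had the largest fold changes of the 10 genes. It has no match, which says only that these letters are not in this window, and the matches are a description of sequence, not of binding.
TXNRD1 window 1: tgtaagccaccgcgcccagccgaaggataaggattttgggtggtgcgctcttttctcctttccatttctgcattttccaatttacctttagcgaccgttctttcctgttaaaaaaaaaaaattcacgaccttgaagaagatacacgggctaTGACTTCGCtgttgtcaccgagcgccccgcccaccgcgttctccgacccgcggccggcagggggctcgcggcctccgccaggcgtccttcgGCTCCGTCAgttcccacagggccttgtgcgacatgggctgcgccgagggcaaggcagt
TXNRD1 window 2: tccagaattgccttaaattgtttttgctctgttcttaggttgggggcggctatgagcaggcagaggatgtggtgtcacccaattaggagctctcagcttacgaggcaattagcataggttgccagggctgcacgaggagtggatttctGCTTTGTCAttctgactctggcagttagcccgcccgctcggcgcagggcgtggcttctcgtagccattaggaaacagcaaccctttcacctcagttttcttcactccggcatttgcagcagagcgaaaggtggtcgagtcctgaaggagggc
SRXN1 window: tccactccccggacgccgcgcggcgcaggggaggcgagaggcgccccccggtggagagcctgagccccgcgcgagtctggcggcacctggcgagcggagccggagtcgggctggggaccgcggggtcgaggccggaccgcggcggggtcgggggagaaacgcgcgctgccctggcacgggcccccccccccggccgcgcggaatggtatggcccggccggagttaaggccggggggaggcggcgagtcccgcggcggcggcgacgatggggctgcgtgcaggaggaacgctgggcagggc

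SRXN1 encodes sulfiredoxin, which reduces overoxidised peroxiredoxins. It had the largest fold change of the 10 genes at each time, and it rose at all 4. At 6 h its level was 209, 206 and 203 TPM in DMF and 23.8, 22.2 and 23.02 TPM in control. At 12 h it was 106, 98.5 and 39.0 TPM in DMF and 15.3, 15.5 and 3.13 TPM in control. Replicate 3 was again the lowest at 12 h in both groups, and its DMF library still lay above all 3 controls. At 24 h SRXN1 had 29.8, 29.9 and 30.9 TPM in DMF and 11.7, 11.2 and 12.0 TPM in control. At 48 h it had 31.4, 36.3 and 36.2 TPM in DMF and 7.06, 6.48 and 6.55 TPM in control. The groups did not overlap at any time.

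In counts, SRXN1 was 9.89-fold higher in DMF at 6 h, 7.70-fold at 12 h, 2.69-fold at 24 h and 4.40-fold at 48 h. The log2 fold changes were 3.31 ± 0.16, 2.95 ± 0.16, 1.43 ± 0.15 and 2.14 ± 0.16 (SE), with edgeR adjusted p of 1.7e-10, 4.5e-10, 3e-06 and 9.1e-09. It stood at place 10, 21, 259 and 150 of 13419 genes by log2 fold change at these times. The 22 libraries gave 3.30, 2.84, 1.43 and 2.18. Fitted on the 6 libraries of 12 h alone, the change at 12 h was 2.94 and was not called (edgeR adjusted p = 0.089). SRXN1 was also the member whose response to DMF differed between times in the 24 libraries (joint test of 3 interaction terms, edgeR adjusted p = 2.2e-05), where 15% of all genes were called.

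The other 9 genes did not pass that joint test in the 24 libraries, with an edgeR adjusted p of 0.24 for TXNRD1, 0.13 for PRDX2 and 0.99 for TXN. Of the 10 genes, 9 passed in the 22 libraries, all but PRDX6, and so did 69.1% of all genes. There the edgeR adjusted p was 2.5e-13 for TXNRD1, whose log2 fold change was smallest at 24 h, as it was for SRXN1, and 0.00024 for PRDX1, whose change was largest at 48 h.

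PRDX1 encodes the most abundant cytosolic peroxiredoxin, a typical 2-cysteine enzyme that depends on thioredoxin and is a substrate of sulfiredoxin. It rose at 12, 24 and 48 h, and its level at 6 h was 1562, 1629.8 and 1563 TPM in DMF and 1222, 1225 and 1195 TPM in control. At 12 h it was 2042, 2023 and 1666 TPM in DMF and 1379, 1416 and 892 TPM in control. At both times the lowest DMF library lay above the highest control library. At 24 h PRDX1 had 2131, 1954 and 2043 TPM in DMF and 1298, 1318 and 1308 TPM in control. At 48 h it had 1834, 1850.2 and 1793 TPM in DMF and 846, 835 and 774 TPM in control. Control was at its lowest at 48 h, and the groups stayed apart.

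The folds of PRDX1 in counts were 1.44 at 6 h, 1.51 at 12 h, 1.62 at 24 h and 1.89 at 48 h. The log2 fold changes were 0.52 ± 0.20, 0.59 ± 0.20, 0.69 ± 0.20 and 0.92 ± 0.20 (SE), with edgeR adjusted p of 0.11, 0.043, 0.021 and 0.0016. The calls at 12 and 24 h were weak. Leaving out 1 library ended the call at 12 h in 22 of 24 cases (edgeR adjusted p 0.05 to 0.23) and the call at 24 h in 13 of 24 (0.055 to 0.14). Without replicate 3 of control at 12 h the change at 12 h was 0.93, and without replicate 3 of DMF at 12 h it was 0.31. The call at 12 h also ended with DESeq2's size factors in edgeR (adjusted p = 0.076) and in the 6 libraries of 12 h alone (edgeR adjusted p = 0.85). In the 22 libraries PRDX1 was called at all 4 times (0.52, 0.65, 0.70 and 0.92, edgeR adjusted p of at most 2.9e-09).

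PRDX2, a typical 2-cysteine peroxiredoxin best known from red cells, was close to the limit of detection. At 48 h it had 1, 5 and 11 counts in DMF and 21, 44 and 27 counts in control, and 0.69, 0.30 and 0.68 TPM in DMF against 1.38, 2.32 and 1.45 TPM in control. The groups did not overlap. Its log2 fold change at 48 h was -2.02 ± 0.46 (SE, edgeR adjusted p = 0.0028), a 4.07-fold lower level, and -2.03 in the 22 libraries (edgeR adjusted p = 4.8e-05). Without replicate 2 of DMF at 48 h the change was -1.58 and was no longer called (edgeR adjusted p = 0.058). At 6, 12 and 24 h it was -0.18, -0.20 and -0.56, with edgeR adjusted p of 0.91, 0.81 and 0.49. The red-cell gene HBB was at 0.11 TPM or less in all libraries, and HBA1 had up to 4.14 TPM.

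PRDX6, the 1-cysteine peroxiredoxin, reduces phospholipid hydroperoxides with electrons from glutathione and also has phospholipase activity. Its log2 fold change in the 24 libraries was 0.13 ± 0.32, -0.19 ± 0.32, 0.21 ± 0.32 and 0.18 ± 0.32 (SE) at 6, 12, 24 and 48 h, with edgeR adjusted p of 0.76 to 0.92. In the 22 libraries it was 0.13, 0.16, 0.21 and 0.18, all called, with edgeR adjusted p of 0.022, 0.025, 0.00038 and 0.0018. PRDX6 at 48 h had 187, 188 and 191 TPM in DMF and 140.4, 144 and 139 TPM in control. These groups did not overlap, whereas at 6 h, with 140.0 to 143 TPM in DMF and 139 to 146 TPM in control, they did. In limma on log2(TPM + 1), PRDX6 was called at 48 h in the 24 libraries (0.41, adjusted p = 2.7e-05), where the median over all genes was 0.17. The direction at 6 h turned with the scale and was -0.01 in log2(TPM + 1).

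The mitochondrial thioredoxin, TXN2, had no called change in the 24 libraries. Its levels were 126 to 128 TPM in DMF and 143 to 151 TPM in control at 6 h, and 139 to 147 TPM in DMF and 147 to 153 TPM in control at 48 h. The groups of 6 h and of 48 h did not overlap, with DMF below control. The log2 fold change at 48 h was -0.31 ± 0.40 (SE, edgeR adjusted p = 0.64) and -0.31 in the 22 libraries, where it was called (edgeR adjusted p = 3.2e-05).

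TXNRD2, the mitochondrial reductase, had 6.47 to 6.70 TPM in DMF and 6.93 to 7.55 TPM in control at 6 h, and 4.34 to 5.29 TPM in DMF and 6.38 to 6.76 TPM in control at 12 h. At 24 h it had 8.12 to 9.24 TPM in DMF and 7.11 to 7.81 TPM in control, and at 48 h 8.33 to 10.3 TPM in DMF and 7.12 to 8.08 TPM in control. Its level in TPM was thus below control at 6 and 12 h and above control at 24 and 48 h. The log2 fold changes in counts were 0.03, -0.57, 0.29 and 0.16 in the 24 libraries, none called, and 0.03, -0.34, 0.30 and 0.22 in the 22, where those of 12, 24 and 48 h were called (edgeR adjusted p of 0.015, 0.0048 and 0.04). The 6 libraries of 12 h fitted with a replicate block, added after seeing the data, gave -0.49 at 12 h, which was called (edgeR adjusted p = 0.045). At 6 h the direction turned with the scale, with -0.11 in log2(TPM + 1). On that scale the median over all genes was -0.10 at 6 h and 0.17 at 48 h. In scaled counts the TXNRD2 groups of 48 h overlapped.

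PRDX3, the peroxiredoxin of the mitochondrial matrix that depends on TXN2, was not called at any time in the main fit of the 24 libraries. Its level was 212 to 219.7 TPM in DMF and 212 to 214 TPM in control at 6 h, and 229.7 to 238 TPM in DMF and 206 to 212 TPM in control at 48 h. The log2 fold changes were 0.16 ± 0.09, 0.20 ± 0.09, 0.11 ± 0.09 and -0.08 ± 0.09 (SE) at 6, 12, 24 and 48 h, with edgeR adjusted p of 0.36, 0.13, 0.52 and 0.58. DESeq2 called the change at 12 h (0.21, adjusted p = 0.0044), and so did edgeR with DESeq2's size factors (0.22, adjusted p = 0.05 after rounding). Without replicate 3 of 12 h the values were 0.15, 0.12, 0.11 and -0.07, of which those of 6, 12 and 24 h were called (edgeR adjusted p of 0.0029, 0.043 and 0.024) and that of 48 h was not (0.14). At 48 h the value of PRDX3 was 0.16 in log2(TPM + 1) and -0.08 in counts scaled by TMM. The medians over all genes were 0.17 and 0.02 on these scales. The sign of PRDX3 at 48 h thus turned with the scaling.

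PRDX5, an atypical 2-cysteine peroxiredoxin, was higher in DMF at 6 h (274 to 280.4 TPM, against 231 to 249 TPM in control) and at 24 h (346 to 376 TPM, against 291 to 300.2 TPM). The groups were apart at both times. The log2 fold changes were 0.42 ± 0.48 and 0.40 ± 0.48 (SE), not called in the 24 libraries (edgeR adjusted p of 0.76 and 0.68) and called in the 22 (0.42 and 0.40, edgeR adjusted p of 2.2e-06 and 2e-06). At 12 h the replicate 3 libraries had 415 TPM in DMF and 464 TPM in control, far above the other 4 libraries of that time (239.9 to 253 TPM). The change at 12 h was -0.24 with them and 0.22 without them (edgeR adjusted p of 0.8 and 0.014). At 48 h PRDX5 had 418, 449 and 451 TPM in DMF and 325, 358 and 339 TPM in control. These groups were apart in TPM but overlapped in scaled counts, where the log2 fold change was 0.06 ± 0.48 (SE, edgeR adjusted p = 0.95) and 0.08 in the 22 libraries (edgeR adjusted p = 0.25).

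In scaled counts (CPM after TMM), the DMF and control libraries of a time did not overlap for 8 of the 10 genes at 6 h, 2 at 12 h, 8 at 24 h and 8 at 48 h. Of all genes tested this held for 59.9%, 16.7%, 63.9% and 60.7%. The 2 genes at 12 h were TXNRD1 and SRXN1, both higher in DMF at every time. PRDX6 was higher at 6, 24 and 48 h, and PRDX3 was higher at 6 and 24 h and lower at 48 h.

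Cytosolic and mitochondrial partners were compared directly as ratios within a library, which do not depend on scaling. Averaged over the 4 times, the cytosolic partner gained on the mitochondrial one in all 3 tested pairs that span the compartments, and PRDX1 gained on PRDX2. PRDX5 and PRDX6 were not part of any pair. TXNRD1, TXN and PRDX1 each had higher estimates in DMF at all 4 times, so these ratios partly restate their changes. The share of all gene pairs that would reach such p-values was not counted. The tests therefore do not set these pairs, or the compartments, apart from other genes. The log2 ratio of counts of TXNRD1 over TXNRD2 was 7.38 ± 0.06 in DMF and 5.23 ± 0.08 in control at 6 h (SD, n = 3 each), and 5.82 ± 0.19 in DMF and 4.28 ± 0.12 in control at 48 h. The replicate 3 libraries of 12 h gave 5.06 in DMF and 2.08 in control. The groups of 12 h overlapped, with 5.06 to 7.59 in DMF and 2.08 to 5.18 in control. Averaged over the 4 times, the ratio was 1.77 higher in DMF on the log2 scale (two-sided exact permutation test within times, p = 2.5e-05, adjusted over the 4 ratios 3.3e-05), and 1.72 higher in the 22 libraries.

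The log2 ratio of TXN over TXN2 was 1.15 ± 0.08 in DMF and 0.33 ± 0.02 in control at 6 h, and 1.41 ± 0.06 in DMF and 0.11 ± 0.05 in control at 48 h (SD, n = 3 each). DMF lay above control at all 4 times, also in the replicate 3 libraries of 12 h, with 1.25 in DMF and 0.01 in control. The average difference was 1.06 (two-sided exact permutation test, p = 1.3e-05, the smallest that 160000 arrangements can give, adjusted 2.5e-05) and 1.06 in the 22 libraries. The log2 ratio of PRDX1 over PRDX3 was 2.03 ± 0.05 in DMF and 1.66 ± 0.02 in control at 6 h, and 2.12 ± 0.03 in DMF and 1.12 ± 0.08 in control at 48 h. Its average difference was 0.59 (two-sided exact permutation test, p = 0.00057, adjusted 0.00057) and 0.62 in the 22 libraries. For this pair the replicate 3 libraries of 12 h were the highest of all, with 2.99 in DMF and 2.87 in control. Its groups at 12 h overlapped, with 2.14 to 2.99 in DMF and 1.60 to 2.87 in control.

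The log2 ratio of PRDX1 over PRDX2, both cytosolic, was higher in DMF by 0.72 at 6 h, 0.89 at 12 h, 1.20 at 24 h and 2.61 at 48 h. The average was 1.36 (two-sided exact permutation test, p = 1.3e-05, adjusted 2.5e-05) and 1.41 in the 22 libraries. It rests on few PRDX2 counts, with SDs up to 0.86 at 48 h.

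**Figure D3:**
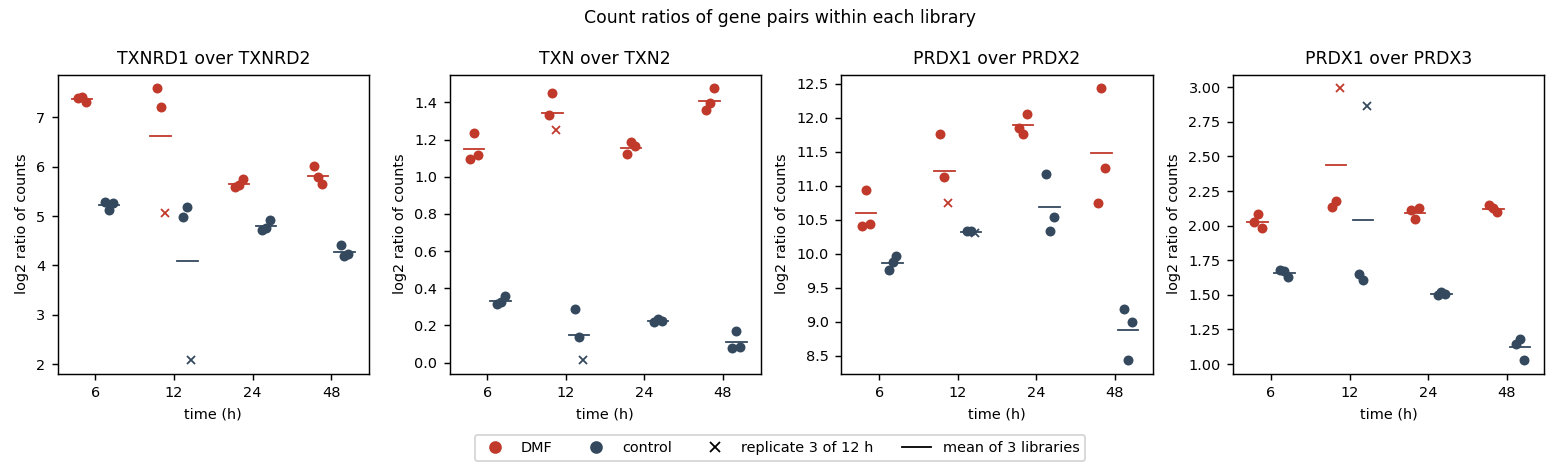
Log2 ratio of counts of 4 gene pairs in each of the 24 libraries at 6, 12, 24 and 48 h, with DMF left of control at each time; bars are means of 3 libraries, crosses are replicate 3 of 12 h, and axes do not start at 0. For TXN over TXN2 the DMF points lie between 1.10 and 1.48 and the control points between 0.01 and 0.36.

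In TPM, TXNRD1 was 77.6 to 83.9 times TXNRD2 in DMF and 17.1 to 18.9 times in control at 6 h. At 48 h it was 25.9 to 30.7 times TXNRD2 in DMF and 9.12 to 10.5 times in control. The cytosolic share of the summed TPM of the 5 peroxiredoxins was 77.4% to 78.2% in DMF and 74.3% to 75.5% in control at 6 h, and 74.3% to 75.7% in DMF and 62.5% to 64.8% in control at 48 h. PRDX1 made up most of the cytosolic sum, with 67.2% to 68.7% of the peroxiredoxin TPM in DMF and 52.9% to 55.5% in control at 48 h. In control at 48 h the cytosolic sum was 915 to 988 TPM, of which PRDX1 had 774 to 846 TPM and PRDX6 139 to 144 TPM.

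Some of these genes also moved in control cells with time in culture. SRXN1 was 3.26-fold lower in control at 48 h than in control at 6 h (log2 fold change -1.71 ± 0.15 SE, edgeR adjusted p = 4.7e-08), and TXNRD1 1.75-fold lower (-0.81 ± 0.28, edgeR adjusted p = 0.024). These were 2 of the 10 genes, beside 20.4% of all genes called lower and 42.0% called in either direction. PRDX1 gave -0.49 ± 0.20 and was not called (edgeR adjusted p = 0.053). The call of TXNRD1 ended on leaving out replicate 1 of control at 6 h or any of the 3 libraries of control at 48 h (edgeR adjusted p 0.052 to 0.057). In limma on log2(TPM + 1) TXNRD1 was not called (-0.86, adjusted p = 0.27) and PRDX1 was (-0.57, adjusted p = 0.00099). Of the 10 genes, 4 were called in the 22 libraries, beside 75.0% of all genes. They were SRXN1 (-1.70), TXNRD1 (-0.80) and PRDX1 (-0.48), which were lower at 48 h (as were 36.8% of all genes), and PRDX5 (0.70), which was higher (38.2% of all genes).

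The deposited tables also give the mean length of each gene's transcripts weighted by their abundance, which moves with isoform use. SRXN1, PRDX2 and PRDX6 have 1 annotated transcript in the tables and could not be tested. Of the other 7, limma called 0 in the 24 libraries, where 3.92% of 10920 genes were called. PRDX5 alone had an unadjusted p under 0.05 (0.0075, adjusted 0.12). With 22 libraries limma called TXNRD1 and PRDX5, beside 11.1% of 11032 genes.

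TXNRD1 transcripts averaged 4002 ± 1.6 bases in DMF and 3998 ± 0.72 bases in control at 6 h (SD, n = 3 each), 4000.0 ± 3.3 in DMF and 3979 ± 3.8 in control at 24 h, and 3995 ± 2.2 in DMF and 3959 ± 3.2 in control at 48 h. DMF was the longer at all 3 times, by 0.58% on average over the 4 times in the 22 libraries (limma adjusted p = 7.9e-07). PRDX5 transcripts averaged 859 ± 2.5 bases in DMF and 828 ± 3.5 bases in control at 6 h, and 843.5 ± 11.7 in DMF and 873 ± 4.1 in control at 48 h. The order of the groups was thus turned round at 48 h, although the average over the times was 1.59% longer in DMF in the 22 libraries (limma adjusted p = 0.021).

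**Figure D4:**
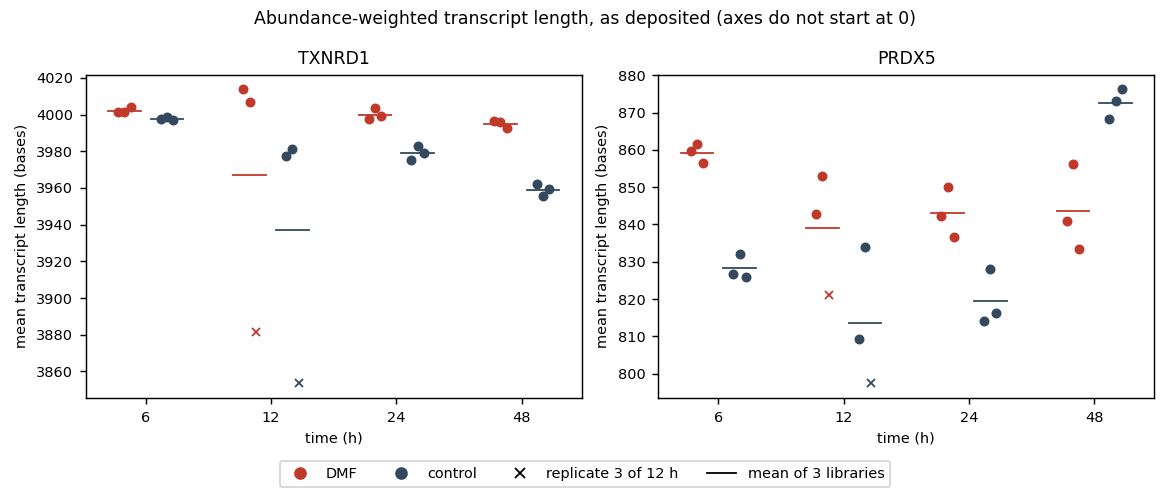
Abundance-weighted transcript length in bases of TXNRD1 and PRDX5 in each of the 24 libraries at 6, 12, 24 and 48 h, with DMF left of control at each time; bars are means of 3 libraries, crosses are replicate 3 of 12 h, and axes do not start at 0. TXNRD1 was longer in DMF at 6, 24 and 48 h, and PRDX5 was longer in DMF at 6 and 24 h and shorter at 48 h.

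Among other genes of the pathway were relatives and inhibitors of thioredoxin. Of 7 tested (PRDX4, TXNIP, TXNL1, TXNDC17, NXN, MAP3K5 and GSTP1), 1 rose at 6 h and edgeR called 0 at 12, 24 and 48 h, with 2, 2 and 4 at an unadjusted p under 0.05, where 28.2%, 25.3% and 35.3% of all genes were so marked. At an adjusted p under 0.05, 10.6%, 17.3%, 14.4% and 25.8% of all genes were called at 6, 12, 24 and 48 h, the background for this list and the next 3. For the 7 genes log2 fold changes ran from -0.78 to 0.73 at 6 h, -0.56 to 0.40 at 12 h, -0.05 to 0.91 at 24 h and -0.62 to 1.09 at 48 h, with medians of 0.32, 0.01, 0.13 and 0.52. Without replicate 3 of 12 h, 6 h had 4 higher and 2 lower, 12 h had 5 and 2, 24 h had 3 and 0, and 48 h had 5 and 2, where 47.2%, 47.9%, 57.4% and 64.5% of all genes were called. TXNIP, which binds and inhibits thioredoxin, had 20.4 to 21.6 TPM in DMF and 33.4 to 33.7 TPM in control at 6 h. Its log2 fold changes of -0.53, -0.56, 0.13 and -0.62 at 6, 12, 24 and 48 h were not called in the 24 libraries (edgeR adjusted p of 0.16, 0.1, 0.8 and 0.054). Those of 6, 12 and 48 h were called in the 22 (edgeR adjusted p of 1.5e-08, 2.7e-08 and 1.8e-08). PRDX4, the peroxiredoxin of the endoplasmic reticulum, gave 0.07, 0.01, 0.44 and 0.55, not called in the 24 libraries. In the 22, its values of 0.27, 0.45 and 0.51 at 12, 24 and 48 h were called (edgeR adjusted p of 0.0076, 2.7e-06 and 8e-07).

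Of 11 reductases that take electrons from thioredoxin or glutathione, 1 fell at 6 h, 2 fell at 12 h, 1 rose at 24 h, and 2 rose and 1 fell at 48 h. The 22 libraries had 4 higher and 2 lower at 6 h, then 3 and 4 at 12 h, 7 and 3 at 24 h, then 6 and 3 at 48 h. Of all genes, 10.6%, 17.3%, 14.4% and 25.8% were called at these times in the 24 libraries. The shares in the 22 libraries were 47.2%, 47.9%, 57.4% and 64.5%. GLRX, the cytosolic glutaredoxin, was lowly expressed and changed direction. It had 0.43 to 0.70 TPM in DMF and 1.08 to 2.56 TPM in control at 6 h, and 5.44 to 6.72 TPM in DMF and 1.99 to 3.37 TPM in control at 48 h. Its log2 fold change was -1.71 ± 0.41 at 6 h, -1.42 ± 0.36 at 12 h and 0.94 ± 0.34 (SE) at 48 h, with edgeR adjusted p of 0.0085, 0.0088 and 0.048. The response of GLRX differed between times (joint test, edgeR adjusted p = 0.0021). Without replicate 3 of 12 h GLRX gave -1.71, -1.16 and 0.96 (edgeR adjusted p of 0.00023, 0.0057 and 0.00069), and 7.2e-06 in the joint test. GLRX2, a glutaredoxin with a mitochondrial form, rose at 24 h (0.69 ± 0.20, edgeR adjusted p = 0.029) and at 48 h (1.08 ± 0.21, edgeR adjusted p = 0.00077), with 44.2 to 49.1 TPM in DMF and 16.9 to 19.7 TPM in control at 48 h. In the 22 libraries these changes were 0.69 and 1.11 (edgeR adjusted p of 3.2e-08 and 8.4e-11).

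Of 5 other enzymes against superoxide and peroxide (CAT, SOD1, SOD2, GPX1 and GPX4), CAT fell at 12, 24 and 48 h and was the one gene called in the 24 libraries. Catalase, which CAT encodes, breaks down hydrogen peroxide in peroxisomes. CAT had 10.8 to 12.1 TPM in DMF and 16.8 to 21.1 TPM in control at 48 h. Its log2 fold changes were -0.75 ± 0.13, -0.54 ± 0.13 and -1.03 ± 0.14 (SE) at 12, 24 and 48 h, with edgeR adjusted p of 0.00055, 0.0083 and 1.3e-05. Without replicate 3 of 12 h CAT was called at all 4 times (-0.30, -0.87, -0.54 and -1.06, edgeR adjusted p of at most 0.0034). Of the 5 enzymes, 2 were then higher at every time, and 2 were lower at 6 and 12 h, 1 at 24 h and 3 at 48 h. In that fit 47.2%, 47.9%, 57.4% and 64.5% of all genes were called at 6, 12, 24 and 48 h.

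Of 7 genes listed for selenocysteine incorporation, a process that thioredoxin reductases need, 1 fell at 6, 24 and 48 h and 2 fell at 12 h. Of all genes, 10.6%, 17.3%, 14.4% and 25.8% were called at 6, 12, 24 and 48 h. The gene that fell at every time was SEPHS1, a relative of the selenophosphate synthetase SEPHS2. SEPHS2 itself, SECISBP2, EEFSEC, PSTK and TRNAU1AP were called at 0 times in the 24 libraries, and SEPSECS at 1. SEPHS1 had 24.9 to 25.3 TPM in DMF and 38.7 to 41.7 TPM in control at 6 h, and 22.2 to 23.1 TPM in DMF and 32.3 to 35.7 TPM in control at 48 h. Its log2 fold changes were -0.49 ± 0.12, -0.79 ± 0.12, -0.73 ± 0.12 and -0.84 ± 0.12 (SE), with edgeR adjusted p of 0.01, 0.00012, 0.0003 and 3.4e-05. The groups of 6 and 48 h did not overlap. The 22 libraries gave -0.49, -0.75, -0.72 and -0.83 (edgeR adjusted p of at most 2.1e-08). Of the 7 genes, 6 h then had 0 higher and 4 lower, 12 h had 1 and 4, 24 h had 1 and 2, and 48 h had 2 and 3. The 22 libraries had 47.2%, 47.9%, 57.4% and 64.5% of all genes called at these times.

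The genes whose log2 CPM followed a member most closely over the 24 libraries were sought for TXNRD1, SRXN1 and TXN, as a description over libraries that share treatments and times. For TXNRD1 they were STX3 (Pearson r = 0.98), GCLM (0.98), C16orf72 (0.97), GSR (0.97) and PRAG1 (0.97). GCLM encodes a subunit of the enzyme that starts glutathione synthesis and GSR encodes glutathione reductase. For SRXN1 they were GSR (0.98), RRAGC (0.98), RNF185 (0.98), C16orf72 (0.97) and ERF (0.97). For TXN they were TALDO1 (0.98), an enzyme of the pentose phosphate pathway, UBE2M (0.96), SOD1 (0.96), SDF2 (0.96) and NUDT5 (0.96). GSR and C16orf72 stood in the lists of both TXNRD1 and SRXN1 in the 24 libraries, and in the 22 GSR alone did. The correlation between TXNRD1 and SRXN1 themselves was 0.95 in the 24 libraries and 0.98 in the 22.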

How the data were processed

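RNA-seq libraries were made from total RNA extracted with the RNeasy Mini kit, per the labels' protocols. Per the submitters' processing notes, the authors worked with HISAT2, HISAT and RSEM and the build GRCh38.p12; the strand setting is not given in the sources used here. The deposited gene tables give expected counts from RSEM (estimated reads per gene, not normalized), TPM and FPKM scaled per library by the authors, and transcript lengths in bases, per the file headers. FPKM values were used for no result. Between 6.16% and 11.53% of the expected counts per library were not whole, and all were rounded.

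Genes were filtered with filterByExpr by group, which kept 13419 of 21831, scaled by TMM, and tested with quasi-likelihood F-tests in edgeR 4.0.16 (R 4.3.3) in 1 fit with 8 group means. The Benjamini-Hochberg adjustment ran over all genes tested, and calls were made under an adjusted p of 0.05. Standard errors are the log2 fold change divided by the square root of F. The depth of the shallowest library, 2870751 counts, limits precision most for low genes at 48 h. Ratios were tested with 0.5 added to each count by exact permutation within times. Lengths were tested on the log2 scale with limma 3.58.1. Alternatives were DESeq2 1.42.0, no low-count filter, edgeR with DESeq2's size factors, a replicate block, 22 libraries, the compared groups alone, limma on log2(TPM + 1), each library left out and, added after seeing the data, a replicate block in the 12 h libraries alone. The fit and the length, ratio and TPM steps were tested on simulated data. The members and lists were chosen with earlier results of these data known. Members were named whatever their result, other pathway genes where called at 2 or more times (beside TXNIP and PRDX4), and the 5 genes of closest pattern for 3 members.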

Additional observations from a re-analysis of the deposited data

Results flagged for a closer look

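The effect of DMF on SRXN1 differed between the 4 times (joint edgeR test of the interaction terms, adjusted p = 2.2e-05). Its log2 fold change was 3.31 at 6 h, 2.95 at 12 h, 1.43 at 24 h and 2.14 at 48 h. Mean scaled counts in DMF were 46.2 CPM at 24 h and 47.1 CPM at 48 h. In control they were 17.2 CPM at 24 h and 10.7 CPM at 48 h. All 3 DMF libraries were higher than all 3 controls at each time. In the 22 libraries without replicate 3 of 12 h the edgeR adjusted p was 1.7e-16.

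The effect of DMF on GLRX also differed between times (joint edgeR test, adjusted p = 0.0021), with log2 fold changes of -1.71 at 6 h and 0.94 at 48 h. The levels of GLRX were low, at 0.43 to 0.70 TPM in DMF and 1.08 to 2.56 TPM in control at 6 h.

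The mean transcript length of PRDX5 was longer in all DMF libraries than in all controls at 6 h, by 31.1 bases (31.05), and at 24 h, by 23.6 bases (23.55), and shorter in all of them at 48 h (DMF minus control, -29.1 bases). The difference between times in transcript length was not tested.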

How the results depend on the processing

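The ratios kept direction and call under every alternative tried. The counts of the 10 genes called in 24 libraries moved as follows. The share of all genes called was counted for the main fits of the 24 and 22 libraries alone. Counts from the other alternatives therefore have no background. The count at 6 h was 2, against 7 in the 22 libraries and 8 with only the compared groups fitted. At 12 h it was 3, against 8, 0 with only the compared groups and 5 with limma on log2(TPM + 1). At 24 h it was 3, against 8 and 8. At 48 h it was 4, against 8, 7 with only the compared groups and 7 with limma. The joint test called 1, against 2 with DESeq2 and 9 in the 22 libraries. For control at 48 h against control at 6 h the count was 2, against 4 in the 22 libraries and 4 with only the compared groups. For transcript length it was 0, against 2 in the 22 libraries and 1 with the replicate block. Leaving out 1 library gave 2 to 4 calls at 6 h, 2 to 6 at 12 h, 2 to 4 at 24 h, 3 to 5 at 48 h, 1 to 3 in the joint test, 1 to 4 in control and 0 to 1 for length. Signs turned in log2(TPM + 1), whose median over all genes lay at -0.10 at 6 h and 0.17 at 48 h, for PRDX6 (-0.0086) and TXNRD2 (-0.11) at 6 h, PRDX3 at 48 h (0.16), and PRDX6 (-0.0129) and PRDX3 (-0.0204) in control at 48 h against 6 h. They turned in the 22 libraries for PRDX6 (0.16) and PRDX5 (0.22) at 12 h. With 1 library left out, log2 fold changes that turned ran at 12 h from -0.75 to 0.14 for PRDX2, -0.62 to 0.57 for PRDX6, -1.12 to 0.47 for TXN2, -1.06 to 0.13 for TXNRD2 and -1.03 to 0.99 for PRDX5, and at 24 h from -0.0942 to 0.0238 for TXN2. The cause was not tested. Replicate numbers were not taken to pair the libraries, since not every pair passed 0.1: same-numbered deviations correlated at -0.06 to 0.04 at 6, 24 and 48 h, but at 0.76 to 0.90 at 12 h. With a block in the 6 libraries of 12 h, an alternative chosen after seeing the data, 5 genes were called at 12 h. With the replicate block over all libraries the log2 ratio tests gave exact p of 0.00049, the smallest possible, and member calls differed at TXN at 48 h (0.97), PRDX1 in control (-0.48) and PRDX5 length. Depth limits PRDX2 most, with 1 to 44 counts per library.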
